A study of Mus musculus with 9 samples.

Results

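The genes described here are 52 cell cycle and mitosis genes of the mouse, listed by symbol: cyclins and their kinases, transcription regulators, the replication machinery, the enzymes that make DNA precursors, and the machinery of mitosis from chromosome condensation to cytokinesis. A gene was taken when its symbol was in the expression table with an FPKM (a fragment count divided by transcript length and by library size) of at least 0.5 in at least 3 of the 9 libraries. All 52 were in the table of 22482 genes, and all 52 were among the 14292 genes that met this condition. Of the 52, 14 had an FPKM under 0.5 in each of the 3 Sham libraries, so that they met it only through libraries of injured brain. Another 29 reached 0.5 in all 3 Sham libraries. The rest reached it in only part of the Sham libraries, so that they also needed libraries of injured brain.

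The libraries hold total RNA of mouse brain and form 3 groups of 3. The C-β-LG/DSF group had a traumatic brain injury from a falling weight and then an injection of the preparation C-β-LG/DSF into the tail vein. The TBI group had that injury alone. In the Sham group the skull was drilled and the dura opened, with the brain left undamaged. The tissue was the injured area, or the corresponding site in Sham. The sources used here give no time after injury, dose, strain, sex or age. Nothing in the labels states that the libraries of a group came from different animals, so p-values measure the spread between these libraries, which may be technical.

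A cell that leaves rest first makes D-type cyclins, which with Cdk4 and Cdk6 act on the retinoblastoma family of pocket proteins and free E2F factors to switch on the genes of DNA replication. Later, B-Myb and FoxM1 switch on the genes of mitosis, many of which are held silent in resting cells by the DREAM complex, a repressor built on a pocket protein and the MuvB core that binds promoters at an element called the CHR. Neurons of the adult brain do not divide, whereas microglia, astrocytes, oligodendrocyte precursors and cells that enter from the blood are known to divide near an injury.

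The promoters of 5 of the genes are shown because their letters differ in the way the cell cycle literature separates genes of mitosis from genes of replication. Each line gives the 250 bases before the start site, 5′ to 3′ on the strand of the gene, from RefSeq on GRCm38.p6. Capitals mark exact matches on either strand to the CHR (TTTGAA or TTCGAA), to the CCAAT box (CCAAT, which NF-Y binds) and to 4 forms of the E2F site (TTTCCCGC, TTTCGCGC, TTTGCCGC and TTTGGCGC). Cdk1 lies at chr10:69352913-69353162 on the minus strand, Ube2c at chr2:164769679-164769928 on the plus strand, Top2a at chr11:99024190-99024439 on the minus strand, Mcm6 at chr1:128359706-128359955 on the minus strand and Cdk2 at chr10:128705052-128705301 on the minus strand.
Cdk1: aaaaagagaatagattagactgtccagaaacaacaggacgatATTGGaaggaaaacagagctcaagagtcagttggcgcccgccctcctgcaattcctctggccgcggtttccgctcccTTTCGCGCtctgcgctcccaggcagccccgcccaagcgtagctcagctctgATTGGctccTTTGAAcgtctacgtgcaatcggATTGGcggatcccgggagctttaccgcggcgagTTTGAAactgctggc
Ube2c: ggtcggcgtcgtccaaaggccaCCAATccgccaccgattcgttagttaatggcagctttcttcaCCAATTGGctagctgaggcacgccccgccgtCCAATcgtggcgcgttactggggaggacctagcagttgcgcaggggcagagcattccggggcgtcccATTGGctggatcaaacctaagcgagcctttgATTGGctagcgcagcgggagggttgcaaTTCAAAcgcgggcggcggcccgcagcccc
Top2a: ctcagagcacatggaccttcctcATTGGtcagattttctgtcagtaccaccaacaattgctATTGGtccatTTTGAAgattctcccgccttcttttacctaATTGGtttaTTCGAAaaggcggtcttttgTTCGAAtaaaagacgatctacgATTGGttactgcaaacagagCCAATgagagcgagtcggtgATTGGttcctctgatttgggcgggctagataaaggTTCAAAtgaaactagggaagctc
Mcm6: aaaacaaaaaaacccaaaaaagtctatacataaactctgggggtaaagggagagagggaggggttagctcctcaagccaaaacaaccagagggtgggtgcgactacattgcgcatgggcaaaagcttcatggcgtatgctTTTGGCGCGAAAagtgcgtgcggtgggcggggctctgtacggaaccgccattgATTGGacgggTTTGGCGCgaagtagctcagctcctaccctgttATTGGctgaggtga
Cdk2: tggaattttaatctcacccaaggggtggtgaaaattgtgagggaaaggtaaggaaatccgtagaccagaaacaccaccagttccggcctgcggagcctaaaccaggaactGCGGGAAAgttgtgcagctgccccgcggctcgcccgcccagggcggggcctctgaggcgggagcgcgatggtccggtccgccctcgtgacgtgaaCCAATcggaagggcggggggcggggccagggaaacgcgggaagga
The promoters of Ube2c and Top2a, a pair of genes used in mitosis, hold CHR and CCAAT letters and none of the E2F forms. That of Cdk1 holds all 3 kinds, with 1 CHR match beginning 15 bases before the start site. Those of Mcm6 and Cdk2, which act in replication and at its entry, hold E2F and CCAAT letters and no CHR letters. A match is a description of the letters and not evidence of binding.

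The summed FPKM of a library ran from 406274 to 445404, and between 12566 and 13312 genes per library reached 1 FPKM. Fragment counts are not given, and the depth relative to Sham library 1, estimated from the smallest FPKM steps, ran from 0.940 to 1.07. The tissue label was borne out by neuronal markers, 8 of 8 of which were measured, with a summed FPKM of 2024 to 2479 in C-β-LG/DSF libraries, 1548 to 2186 in TBI libraries and 3094 to 3225 in Sham libraries. The authors' intervals around FPKM began at 0 in all 3 Sham libraries for 39 of the 52 genes, so their Sham levels are poorly resolved. Positions are those of the table, which match GRCm38. For 36 of the 52 genes they equal the annotated gene, and for 16 they differ, often because the table gives a locus that also covers neighbouring genes. Among the 16 are Cdk2, Ccnd1, Ccnd3, Cdk4, Foxm1, Cdt1, Tk1, Ube2c and Kif20a. What this does to their values was not tested.

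Most of the cell cycle genes were higher in injured brain than in Sham. In TBI against Sham, 34 of the 52 genes were higher at an adjusted p under 0.05, 1 was lower and 17 did not pass (limma on log2(FPKM + 0.5), two-sided, adjusted by Benjamini-Hochberg over all 14292 genes). The background is 14.9% of all genes tested higher and 12% lower. The median difference of the 52 genes was 1.55 on the log2 scale, beside 0.0082 for all genes tested. All 3 TBI libraries stood above all 3 Sham libraries for 46 of the 52 genes, beside 22.6% of all genes, and below them for 2, beside 20.4%. Of the 14 genes under 0.5 in every Sham library, which had to be high elsewhere to be taken, 12 were called higher, and of the 29 at 0.5 or more in every Sham library, 15 were. The 4 mitotic roles held 12 of those 14 genes. They had 23 of 27 genes called higher, and 12 of 15 when genes under 0.5 in every Sham library are set aside. The other 4 roles had 11 of 25, and 10 of 23 when those are set aside. Some of the genes left, such as Ube2c and Foxm1, reached 0.5 in only part of the Sham libraries. They too needed injured libraries to be taken. Whether the roles differ was not tested. In bulk tissue, a change in the number of cells that express a gene and a change in RNA per cell cannot be told apart.

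**Figure D1:**
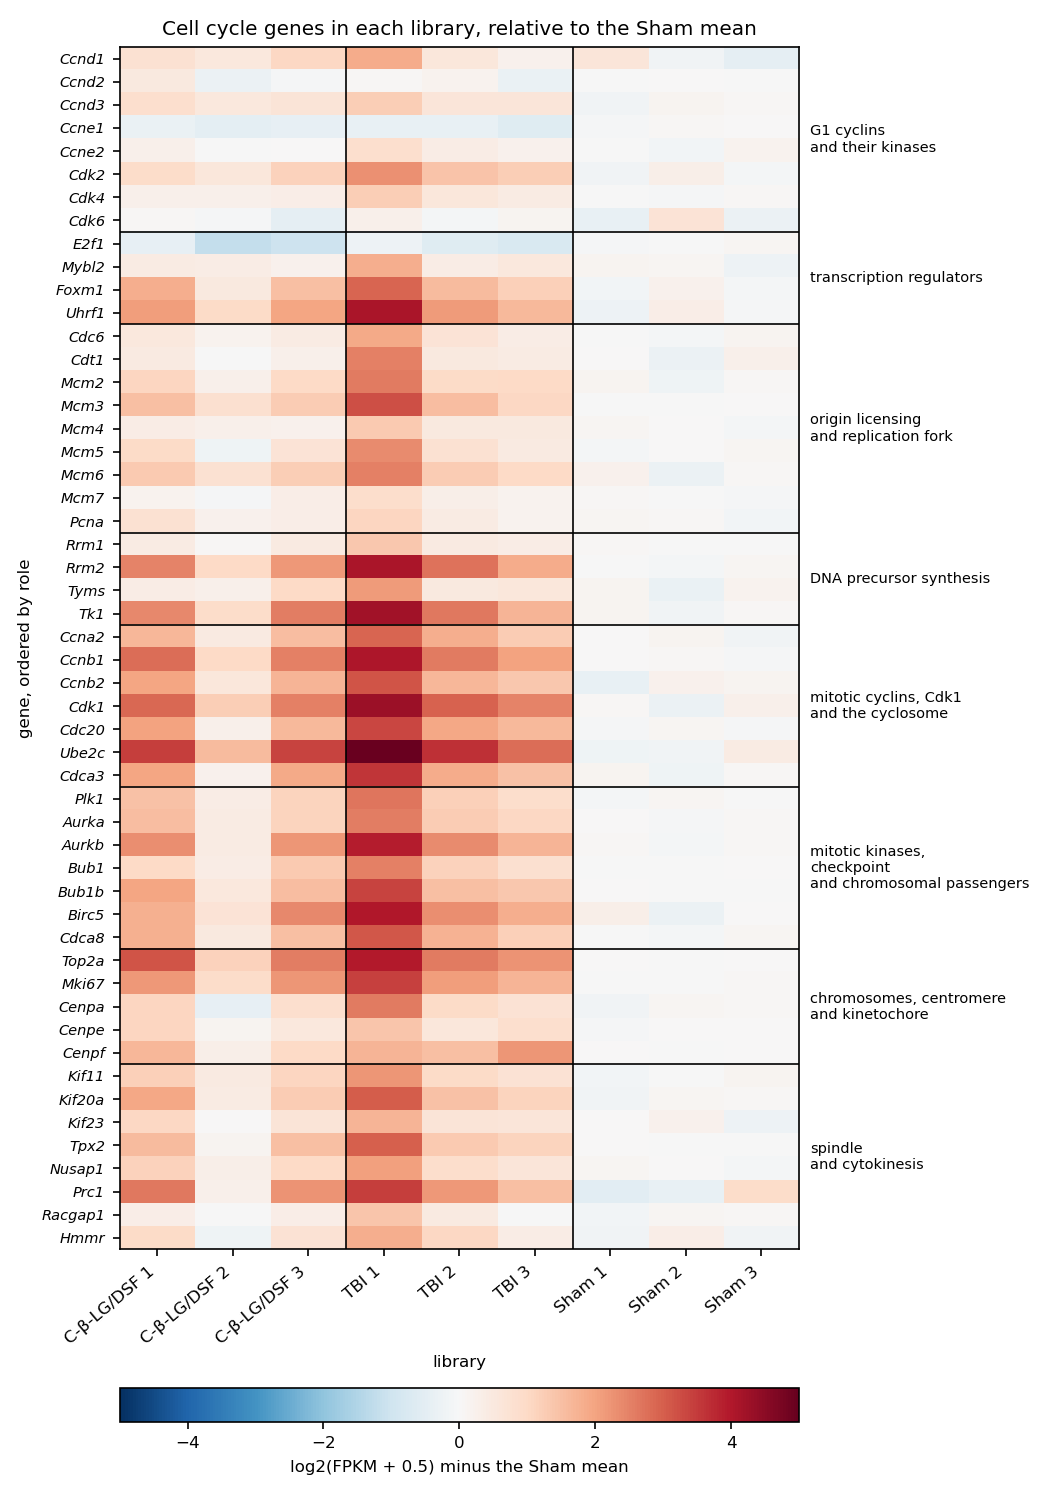
Each cell is the log2(FPKM + 0.5) of 1 gene in 1 library minus the mean of that gene over the 3 Sham libraries; genes are grouped by role and libraries by group. TBI library 1 is the darkest column for most genes, C-β-LG/DSF library 2 is the palest of the injured libraries, and Ccne1 and E2f1 are blue in all 6 libraries of injured brain.

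Among the G1 cyclins and their kinases, which take a cell out of rest, 3 of 8 genes were higher in TBI than in Sham (Ccnd3, Cdk2 and Cdk4), 1 was lower (Ccne1) and 4 did not pass (Ccnd1, Ccnd2, Ccne2 and Cdk6). The median difference of the 8 was 0.60, the smallest of the 8 roles. Cdk2 (ENSMUSG00000025358.16, chr10:128697939-128744855, minus strand), the kinase that cyclins E and A activate at the start of replication, had 7.76, 4.06 and 3.54 FPKM in TBI libraries 1, 2 and 3, against 1.02, 1.56 and 1.07 in Sham libraries 1, 2 and 3. Every TBI library was more than the highest Sham library, and TBI 1 was the highest. The log2 difference was 1.65 ± 0.28 (SE; limma adjusted p = 0.00347).

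Of the 3 D-type cyclins, which carry growth signals to Cdk4 and Cdk6, Ccnd3 passed the test. Ccnd3 (ENSMUSG00000034165.16, chr17:47505051-47611492, plus strand) had 42.2, 26.9 and 27.0 FPKM in TBI libraries, against 15.6, 19.4 and 18.2 in Sham libraries, with no overlap, a log2 difference of 0.81 ± 0.18 and a limma adjusted p of 0.00973. Ccnd1 (ENSMUSG00000070348.5, chr7:144915100-144939869, minus strand) had 34.3, 13.7 and 10.8 FPKM in TBI libraries, against 14.3, 8.10 and 6.67 in Sham libraries. Here the groups overlapped, since Sham 1 exceeded TBI 2 and TBI 3, and the difference of 0.87 ± 0.40 did not pass (limma adjusted p = 0.141). Ccnd2 (ENSMUSG00000000184.12, chr6:127125162-127152193, minus strand) had 18.8, 20.1 and 14.3 FPKM in TBI libraries, against 17.8, 18.2 and 17.9 in Sham libraries. The 3 Sham values of Ccnd2 lay within the range of the TBI values, and its difference of −0.033 had a 95% interval of −0.47 to 0.40. Whether the D-type cyclins differ from each other in this contrast was not tested.

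Ccne1 (ENSMUSG00000002068.16, chr7:38097984-38107534, minus strand), the cyclin that activates Cdk2 before replication, was the 1 gene of the 52 that was called lower. It had 6.56, 6.64 and 5.48 FPKM in TBI libraries, against 8.22, 9.0 and 8.75 in Sham libraries, and every TBI library was below every Sham library. The log2 difference was −0.45 ± 0.11 (limma adjusted p = 0.0144). The call was lost without Sham 2 (adjusted p = 0.0545) or without Sham 3 (adjusted p = 0.0535). Its partner in function, Ccne2, had a difference of 0.48 in the other direction, which did not pass (adjusted p = 0.0962).

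Of the 4 transcription regulators, Foxm1 and Uhrf1 were higher in TBI than in Sham, and E2f1 and Mybl2 did not pass. Foxm1 (ENSMUSG00000001517.14, chr6:128362967-128424931, plus strand), which drives genes of G2 and mitosis, had 6.85, 2.41 and 1.72 FPKM in TBI libraries, against 0.387, 0.618 and 0.417 in Sham libraries. The groups were apart, and TBI 1 was well above the other two TBI libraries. Its difference was 1.90 ± 0.45 (limma adjusted p = 0.0148), and the call was lost without Sham 1 (adjusted p = 0.0522) or without Sham 3 (adjusted p = 0.0514). Uhrf1 (ENSMUSG00000001228.14, chr17:56303321-56323486, plus strand), which carries DNA methylation over to new strands during replication, had 13, 3.02 and 1.98 FPKM in TBI libraries, against 0.168, 0.501 and 0.279 in Sham libraries, again with no overlap. Its difference was 2.61 ± 0.57 (limma adjusted p = 0.00992).

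E2f1 (ENSMUSG00000027490.17, chr2:154559407-154569892, minus strand), an activator of replication genes, stood the other way from most of the 52 genes. It had 6.72, 5.14 and 4.61 FPKM in TBI libraries, against 7.73, 7.97 and 8.57 in Sham libraries, and all 3 TBI libraries lay below all 3 Sham libraries. Its difference of −0.53 ± 0.20 did not pass (limma adjusted p = 0.0804). Mybl2, which encodes B-Myb, averaged 1.74 ± 1.32 FPKM in TBI libraries and 0.581 ± 0.150 FPKM in Sham libraries (SD, n = 3 each), and its difference of 0.91 did not pass (adjusted p = 0.0774).

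Replication origins are licensed by Cdc6 and Cdt1, which load the Mcm2 to Mcm7 helicase, and Pcna is the clamp that holds polymerases at the fork. All 9 of these genes had a positive difference and TBI libraries wholly above Sham libraries, and 4 passed the test (Mcm2, Mcm3, Mcm4 and Mcm6); their median difference was 1.14. Mcm6 (ENSMUSG00000026355.11, chr1:128331590-128359664, minus strand) had 10.4, 4.05 and 3.26 FPKM in TBI libraries, against 1.69, 1.03 and 1.48 in Sham libraries. The lowest TBI library was above the highest Sham library, with a difference of 1.60 ± 0.36 (limma adjusted p = 0.0115). Mcm3 (ENSMUSG00000041859.10, chr1:20802968-20820312, minus strand) had 10.4, 2.88 and 1.94 FPKM in TBI libraries, against 0.660, 0.667 and 0.700 in Sham libraries, a difference of 1.93 ± 0.47 (adjusted p = 0.0156, and 0.0507 without Sham 1). Its Sham values were close together, and TBI 1 was far above the other two TBI libraries.

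Mcm2 (ENSMUSG00000002870.8, chr6:88883474-88898780, minus strand) had 8.88, 2.55 and 2.61 FPKM in TBI libraries, against 1.23, 0.860 and 1.11 in Sham libraries. TBI 2 and TBI 3 were almost equal and TBI 1 was again the highest, with a difference of 1.52 ± 0.41 (limma adjusted p = 0.0248). This call was lost without Sham 1, Sham 2 or Sham 3 (adjusted p = 0.0600, 0.0780 and 0.0684) and under quantile normalization (adjusted p = 0.0717). Pcna (ENSMUSG00000027342.14, chr2:132249162-132253314, minus strand) was the most abundant of the 9 in FPKM, with 36.8, 22.9 and 19.3 in TBI libraries, against 18.1, 17.8 and 15.4 in Sham libraries. Its groups did not overlap, but the difference of 0.56 ± 0.23 did not pass (adjusted p = 0.0980). Neither did those of Mcm7 (0.46), Cdc6 (0.99), Cdt1 (1.14) and Mcm5 (1.2), with adjusted p from 0.0654 for Cdc6 to 0.119 for Cdt1. The locus listed for Cdt1 spans chr8:119910360-124345722, far more than the gene, and what this does to its values was not tested. The authors' intervals for Cdt1 began at 0 in all 3 Sham and all 6 injured libraries, so its values are uncertain.

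All 4 enzymes of DNA precursor synthesis had TBI libraries wholly above Sham libraries, and 2 passed the test. Rrm2 (ENSMUSG00000020649.11, chr12:24708241-24714146, plus strand), the subunit of ribonucleotide reductase that is made in dividing cells, had 16.0, 5.82 and 2.94 FPKM in TBI libraries, against 0.448, 0.401 and 0.536 in Sham libraries. All TBI libraries were many times the Sham level, with a difference of 2.89 ± 0.53 (limma adjusted p = 0.00512). Tk1 (ENSMUSG00000025574.13, chr11:117809668-117839908, minus strand), the thymidine kinase of S phase, had 12.3, 3.81 and 1.77 FPKM in TBI libraries, against 0.271, 0.116 and 0.221 in Sham libraries. Here too the groups were apart, with a difference of 2.84 ± 0.60 (adjusted p = 0.00911). Rrm1, the large subunit of the reductase, and Tyms, thymidylate synthase, had differences of 0.73 and 1.07 that did not pass (adjusted p = 0.0525 for Rrm1 and 0.0887 for Tyms). Rrm1 was already at 4.59, 4.30 and 4.35 FPKM in the Sham libraries.

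All 7 genes of the group with the mitotic cyclins, Cdk1 and the ubiquitin machinery of the cyclosome (anaphase-promoting complex) were higher in TBI than in Sham, with a median difference of 2.30, the largest of the 8 roles. Cdk1 (ENSMUSG00000019942.13, chr10:69335146-69352938, minus strand), the kinase that starts mitosis, had 12.7, 4.88 and 3.32 FPKM in TBI libraries, against 0.207, 0.0575 and 0.325 in Sham libraries. Each TBI library was many times each Sham library, and the difference was 3.23 ± 0.50 (limma adjusted p = 0.00263). Ube2c (ENSMUSG00000001403.13, chr2:164769898-164779741, plus strand), the ubiquitin-conjugating enzyme of the cyclosome, had 23.8, 9.55 and 5.11 FPKM in TBI libraries, against 0.185, 0.209 and 0.551 in Sham libraries. No other gene of the 52 had a larger difference, at 3.80 ± 0.59 (adjusted p = 0.00262). The others were Ccnb1 (2.89), Ccnb2 (2.06) and Ccna2 (1.99), the cyclins that bind Cdk1, with Cdc20 (2.30), an activator of the cyclosome, and Cdca3 (2.30), a promoter of mitotic entry; their adjusted p ran from 0.00593 for Ccnb1 to 0.0199 for Cdca3.

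**Figure D2:**
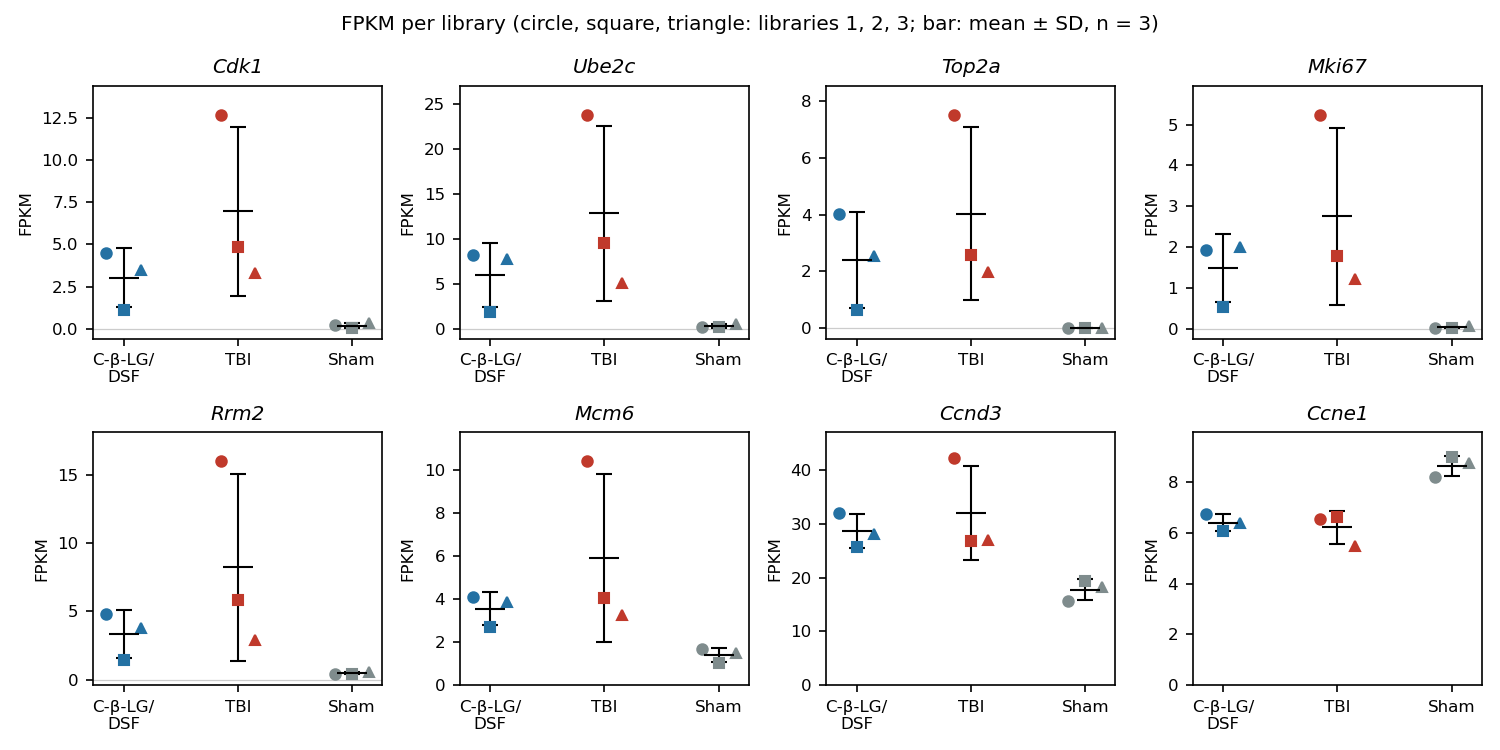
FPKM of 8 genes in each of the 9 libraries, with the mean and SD of each group as black bars; the vertical axes differ between genes. In the first 7 panels all 3 TBI libraries lie above all 3 Sham libraries and TBI 1, the red circle, is the highest point; Ccne1 runs the other way.

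The 7 mitotic kinases, spindle checkpoint proteins and chromosomal passengers were all higher in TBI than in Sham, with a median difference of 2.01. Aurkb (ENSMUSG00000020897.12, chr11:69045647-69051664, plus strand), the kinase of the passenger complex, had 8.93, 2.71 and 1.51 FPKM in TBI libraries, against 0.136, 0.0720 and 0.144 in Sham libraries. TBI 1 was several times TBI 3, and both were above every Sham library; the difference was 2.67 ± 0.61 (limma adjusted p = 0.0122). Birc5 (ENSMUSG00000017716.15, chr11:117849251-117855743, plus strand), which encodes survivin of the same complex, had 20.6, 6.02 and 4.10 FPKM in TBI libraries, against 1.12, 0.571 and 0.827 in Sham libraries. The groups were apart, with a difference of 2.70 ± 0.57 (adjusted p = 0.00859). Cdca8, the passenger protein borealin, had a difference of 2.01, and the kinases Aurka and Plk1 had 1.63 and 1.57. For the checkpoint kinase Bub1 the table gave 2.37, 0.631 and 0.392 FPKM in TBI libraries, against 0, 0 and 0.0175 in Sham libraries, where Sham 1 and Sham 2 are listed at 0, and a difference of 1.5. Bub1b, its relative in the checkpoint, had 2.08.

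Of the 5 genes of chromosomes, centromere and kinetochore, 4 were higher (Top2a, Mki67, Cenpe and Cenpf) and Cenpa did not pass; the median difference was 1.81. Top2a (ENSMUSG00000020914.17, chr11:98992943-99024189, minus strand), the topoisomerase that untangles sister chromosomes, had 7.53, 2.58 and 1.98 FPKM in TBI libraries, against 0.0181, 0.0101 and 0.0198 in Sham libraries. Mki67 (ENSMUSG00000031004.8, chr7:135689784-135716361, minus strand), the gene of the proliferation antigen Ki-67, had 5.24, 1.78 and 1.22 FPKM in TBI libraries, against 0.0277, 0.0259 and 0.0546 in Sham libraries. These were the 2 genes of the 52 for which the authors' interval of each TBI library lay above the intervals of all Sham libraries. Their differences were 2.93 ± 0.53 for Top2a (limma adjusted p = 0.00476) and 2.40 ± 0.47 for Mki67 (adjusted p = 0.00614).

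Cenpf (ENSMUSG00000026605.14, chr1:189640606-189688086, minus strand), a kinetochore protein, had 1.23, 0.982 and 1.94 FPKM in TBI libraries, against 0.0311, 0.0131 and 0.0299 in Sham libraries. It was the 1 gene of the 52 whose highest library was TBI 3, and its difference was 1.81 ± 0.34 (limma adjusted p = 0.00532). Cenpe, a kinetochore motor, had 0.92 (adjusted p = 0.0435), a call that held in 8 of 17 alternative fits. It was lost without TBI 1, TBI 3 or the third C-β-LG/DSF library and without any 1 Sham library (adjusted p up to 0.125), with a pseudocount of 1 (0.0537), with only the 2 groups compared (0.0528) and under quantile normalization, where the difference was 0.46 (0.289). Cenpa, the histone variant of centromeres, had 20.6, 6.21 and 5.29 FPKM in TBI libraries, against 2.61, 3.20 and 3.16 in Sham libraries. Its difference of 1.43 did not pass (adjusted p = 0.0631), although all TBI libraries were above all Sham libraries.

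Of the 8 genes of the spindle and of cytokinesis, 5 were higher (Kif11, Kif20a, Tpx2, Nusap1 and Prc1) and 3 did not pass (Kif23, Racgap1 and Hmmr), with a median difference of 1.24. Kif20a (ENSMUSG00000003779.15, chr18:34624624-34651735, plus strand), a motor of the central spindle, had 4.81, 1.30 and 0.920 FPKM in TBI libraries, against 0.0817, 0.188 and 0.186 in Sham libraries. The groups were apart, with a difference of 1.87 ± 0.51 (limma adjusted p = 0.0242). Without TBI 1 it was 1.30 with an adjusted p of 0.0507, and without Sham 1, Sham 2 or Sham 3 the adjusted p was 0.0775, 0.0607 and 0.0656. Tpx2 (ENSMUSG00000027469.16, chr2:152847964-152895321, plus strand), a spindle assembly factor that activates Aurora A, had 9.47, 2.64 and 2.23 FPKM in TBI libraries, against 0.799, 0.761 and 0.753 in Sham libraries. All TBI libraries exceeded all Sham libraries, with a difference of 1.79 ± 0.51 (adjusted p = 0.0288). Without TBI 1 this was 1.2 with an adjusted p of 0.0605, and without Sham 1, Sham 2 or Sham 3 the adjusted p was 0.0775, 0.0753 and 0.0802. Racgap1, part of the centralspindlin complex with Kif23, was the gene of the 8 whose groups overlapped, at 12.9, 6.48 and 4.61 FPKM in TBI libraries, against 4.17, 4.96 and 4.90 in Sham libraries.

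Calls in TBI against Sham depended on single libraries for about as many genes as not. Of the 35 genes called in either direction, 17 passed in each of the 9 fits that left out 1 library: Ccnd3, Cdk2, Uhrf1, Mcm6, Rrm2, Tk1, Ccna2, Ccnb1, Cdk1, Cdc20, Ube2c, Aurkb, Birc5, Cdca8, Top2a, Mki67 and Cenpf. The 34 genes called higher became 17, 20 and 22 without Sham 1, Sham 2 and Sham 3, while the median difference stayed between 1.48 and 1.55 in these 3 fits. Over all genes the share called higher in these fits was 9.06%, 10.8% and 9.1%, beside 14.9% with all libraries. Without TBI 1, TBI 2 and TBI 3 the 34 became 28, 35 and 45, with medians of 1.01, 1.77 and 1.81, beside 11.3%, 14.5% and 16.5% of all genes. Quantile normalization gave 22 genes higher, beside 11.1% of all genes, and ended the calls of Mcm2, Mcm4, Plk1, Aurka, Bub1, Bub1b, Cenpe, Kif11, Kif20a, Nusap1, Prc1 and Tpx2 (adjusted p from 0.0515 for Aurka to 0.289 for Cenpe).

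TBI library 1 had the highest FPKM of the 9 libraries for 47 of the 52 genes, or 90.4%, beside 26.5% of all genes tested. The median ratio of TBI 1 to the mean of TBI 2 and TBI 3 was 3.29 over the 52 genes, beside 1.0 over all genes. Among the 6 libraries of injured brain, C-β-LG/DSF 2 was the lowest for 44 of the 52 genes, or 84.6%, beside 17.3% of all genes. The mean of the 52 genes, on the log2(FPKM + 0.5) scale and relative to Sham, was 1.32, 0.35 and 1.14 in C-β-LG/DSF libraries 1, 2 and 3, 2.43, 1.24 and 0.95 in TBI libraries 1, 2 and 3, and between −0.022 and 0.028 in the Sham libraries. TBI 2 and TBI 3 thus fell within the range of the C-β-LG/DSF libraries, and TBI 1 stood above all others.

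Markers of several cell types were higher in TBI than in Sham, as most of the cell cycle genes were. Over all genes tested, 14.9% were called higher in TBI than in Sham. All 10 markers of phagocytic microglia were called higher in TBI than in Sham, and their mean relative to Sham was 2.83, 1.78 and 2.94 in C-β-LG/DSF libraries and 4.08, 3.44 and 2.83 in TBI libraries. Their summed FPKM was 1817 to 2215 in C-β-LG/DSF libraries, 2608 to 4506 in TBI libraries and 1216 to 1338 in Sham libraries. Of 8 markers of reactive astrocytes 7 were called higher in TBI than in Sham, with means of 2.63, 2.0 and 2.57 in C-β-LG/DSF libraries and 4.15, 3.02 and 2.66 in TBI libraries, and a summed FPKM of 500.9 to 917 in C-β-LG/DSF libraries, 848 to 2355 in TBI libraries and 69.5 to 77.2 in Sham libraries. In both lists, as in the cell cycle genes, TBI 1 was the highest library and C-β-LG/DSF 2 the lowest of the injured ones.

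Lists of other cell types also held genes called higher in TBI than in Sham. All 10 markers of homeostatic microglia were called higher in TBI than in Sham, with a summed FPKM of 245 to 350.3 in C-β-LG/DSF libraries, 343 to 562 in TBI libraries and 141 to 187 in Sham libraries. The mean of these markers relative to Sham was highest in TBI 2, at 1.65, beside 1.62 in TBI 1. All 8 markers of oligodendrocyte precursors were called higher in TBI than in Sham, with means relative to Sham of 0.39, 0.57 and 0.63 in C-β-LG/DSF libraries and 0.95, 0.69 and 0.89 in TBI libraries. Of 10 markers of monocytes and macrophages 8 were tested and 4 called higher in TBI, with a summed FPKM of 22.3 to 24.8 in C-β-LG/DSF libraries, 17.0 to 52.9 in TBI libraries and 11.0 to 27.3 in Sham libraries; Ccr2 and Chil3 were too low to test. Of 8 markers of pericytes and fibroblasts 4 were called higher, with a summed FPKM of 85.9 to 119 in C-β-LG/DSF libraries, 91.1 to 141 in TBI libraries, of which TBI 1 was the highest, and 42.3 to 68.01 in Sham libraries. Of 8 astrocyte markers 4 were called higher, of 6 ependymal markers 2, of 8 endothelial markers 1 and of 8 markers of mature oligodendrocytes 0. Beside the 14.9% of all genes called higher, the endothelial and mature oligodendrocyte counts were no larger a share. Red cell transcripts were called higher for 3 of 4 tested, with a summed FPKM of 172 to 345 in C-β-LG/DSF libraries, 187 to 1016 in TBI libraries and 41.1 to 189 in Sham libraries, and here TBI 2 was the highest library. Over all genes tested, 12% were called lower in TBI than in Sham. Markers of neurons were called lower in TBI for 4 of 8, with TBI 1 the lowest library at a mean of −1.05. Of neuroblast markers 7 of 8 were tested, 2 were higher and 2 lower in TBI than in Sham.

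For neutrophils 3 of 8 markers, and for lymphocytes 1 of 8, reached the level needed for testing, and none of the 4 was called higher in TBI; the lymphocyte marker, Trbc2, was called lower, with a difference of −1.99. The 3 neutrophil markers stood apart in C-β-LG/DSF 2, the injured library lowest for most of the cell cycle genes: their summed FPKM was 0.555, 27.6 and 5.37 in C-β-LG/DSF libraries 1, 2 and 3, 4.87, 3.71 and 2.04 in TBI libraries and 0.812 to 1.39 in Sham libraries. No marker of any list was listed at 0 in all 9 libraries. Thalamic markers tell of the brain region sampled. Their means relative to Sham were −0.034, 1.83 and 1.21 in C-β-LG/DSF libraries and −0.16, 0.16 and 2.19 in TBI libraries. Among the injured libraries this order ran nearly opposite to that of the 52 genes. TBI 1 was lowest for thalamic markers and highest for the 52 genes (mean 2.43). TBI 3 and C-β-LG/DSF 2 were highest for thalamic markers and lowest for the 52 genes (means 0.95 and 0.35). The part of these cell types and of the region sampled in the differences of the cell cycle genes was not tested.

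**Figure D3:**
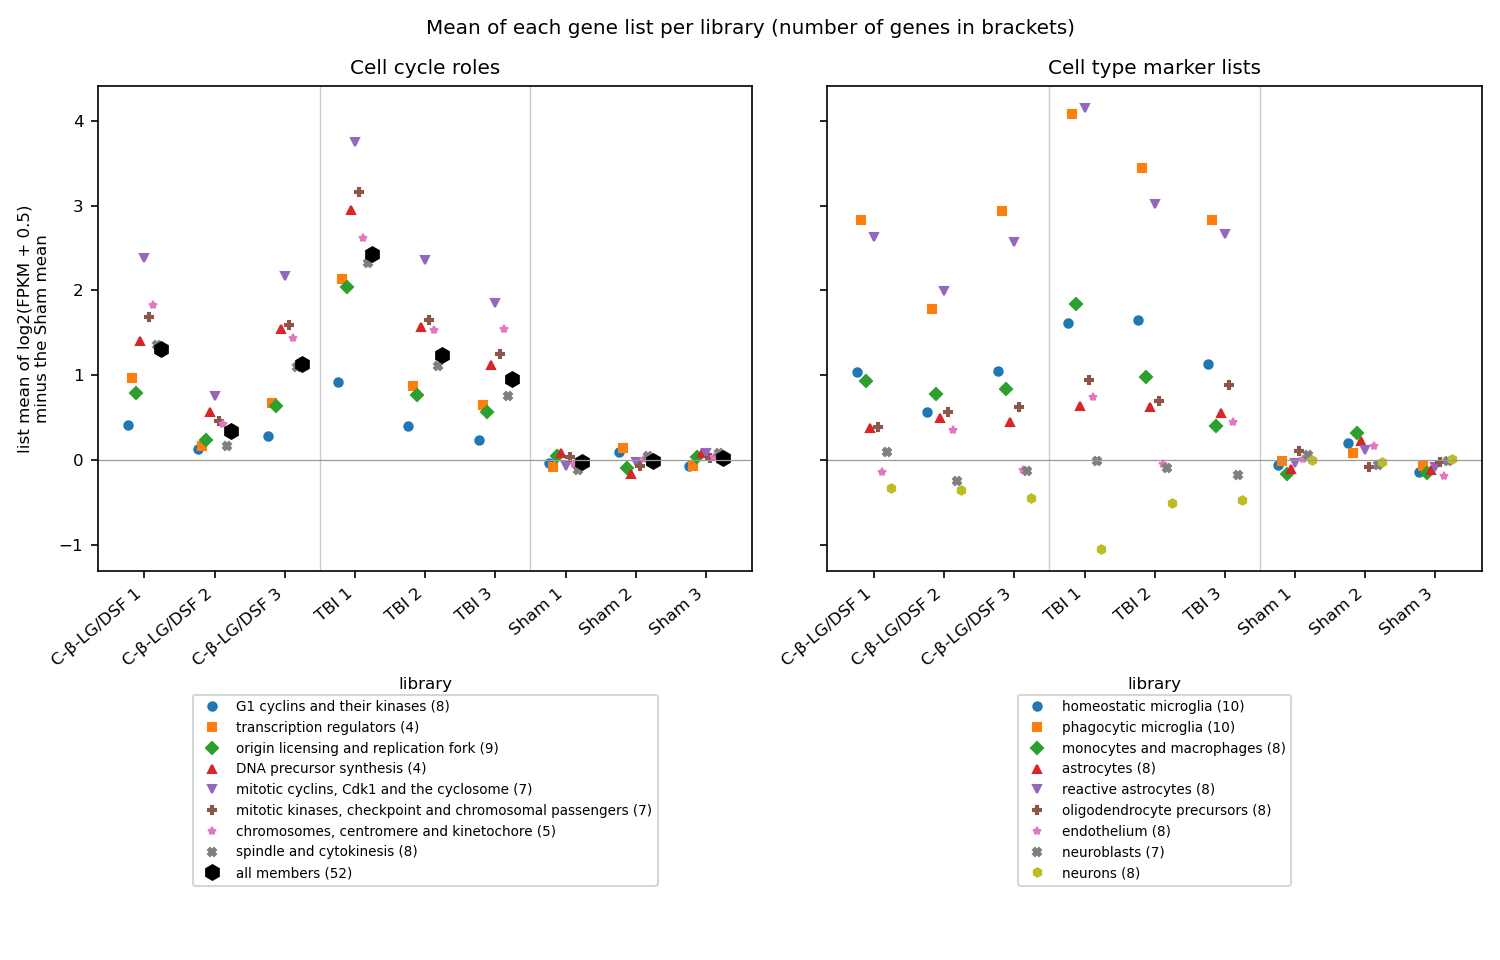
Mean log2(FPKM + 0.5) of each gene list in each library, relative to the Sham mean, with the 8 roles of the cell cycle genes and all 52 together on the left and marker lists of cell types on the right. All 52 genes together stand at 2.43 in TBI 1 and 0.35 in C-β-LG/DSF 2; phagocytic microglia and reactive astrocytes, at 4.08 and 4.15 in TBI 1, are also highest there.

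Further genes of the cell cycle were taken from 4 lists of 106 genes in all, of which 100 could be tested. In TBI against Sham 42 were higher, 2 were lower and 56 did not pass, with a median difference of 0.70. The background in this comparison is 14.9% of all genes tested higher and 12% lower. Of 47 mitosis genes tested, 30 were higher and 2 lower (median 1.26), whereas of 29 genes of S phase 6 were higher (median 0.44), of 14 other E2F and DREAM genes 3 were higher (median 0.11), and of 10 CDK inhibitors and pocket proteins 3 were higher (median 0.12). None was lower in the last 3 lists. Genes under 0.5 FPKM in every Sham library, such as Pbk, Nuf2, E2f2 and Clspn, could be tested only through libraries of injured brain. The counts and medians of the lists include such genes and so partly follow the filter. Whether the shares called higher differ between lists was not tested.

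Pbk, a mitotic protein kinase, had 13.3, 5.04 and 3.12 FPKM in TBI libraries, against 0.0797, 0 and 0.172 in Sham libraries, of which Sham 2 is listed at 0, and a difference of 3.49 ± 0.57 (limma adjusted p = 0.00312). Nuf2, of the Ndc80 complex of the kinetochore, had 5.49, 2.08 and 1.60 FPKM in TBI libraries, against 0.127, 0.0288 and 0.297 in Sham libraries, a difference of 2.31 (adjusted p = 0.00361). In both genes the groups were far apart and TBI 1 was the highest. The pair of mitosis genes called lower were Stmn1 and Wee1. Stmn1, a regulator of microtubules that neurons also use, had 258, 287 and 304 FPKM in TBI libraries, against 431, 341 and 386 in Sham libraries, a difference of −0.44 (adjusted p = 0.0215). Wee1, the kinase that inhibits Cdk1, had 8.95, 6.56 and 7.78 FPKM in TBI libraries, against 10.4, 10.005 and 10.8 in Sham libraries, a difference of −0.41 (adjusted p = 0.0274). For both, every TBI library was below every Sham library. The call of Stmn1 was lost without Sham 1, Sham 3 or TBI 1 (adjusted p = 0.0793, 0.0686 and 0.0559), and that of Wee1 without Sham 1, Sham 2, Sham 3 or TBI 2 (adjusted p = 0.0786, 0.0603, 0.0929 and 0.0646) and with only the 2 groups compared (adjusted p = 0.0683).

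In S phase, Gins2 and Cdc45, which with the Mcm proteins form the active helicase, had differences of 1.52 ± 0.28 (limma adjusted p = 0.00503) and 1.01 ± 0.26 (adjusted p = 0.0211). Gins2 is listed at the same wide locus as Cdt1, and what this does to its values was not tested. The authors' intervals for Gins2 also began at 0 in all 3 Sham and all 6 injured libraries, so its values are uncertain. E2f2, a further activating E2F, had 2.49, 0.988 and 0.824 FPKM in TBI libraries, against 0.375, 0.249 and 0.225 in Sham libraries, a difference of 1.21 (adjusted p = 0.0197), and so stood the other way from E2f1. Lin9, of the MuvB core, had 0.51 (adjusted p = 0.0289). Among the inhibitors, Cdkn2c (p18), which binds Cdk4 and Cdk6, had 13.6, 7.28 and 4.80 FPKM in TBI libraries, against 2.77, 1.34 and 0.965 in Sham libraries, a difference of 2.01 ± 0.43 (adjusted p = 0.00902). Cdkn1a (p21) had 16.7, 13.1 and 13.5 FPKM in TBI libraries, against 7.82, 8.83 and 11.2 in Sham libraries, a difference of 0.62 ± 0.17 (adjusted p = 0.0240). Both inhibitors were thus higher in TBI, as were Cdk4 and Cdk2. Cdkn1c (p57) overlapped between the groups, at 7.82, 8.22 and 2.55 FPKM in TBI libraries, against 5.14, 7.63 and 5.77 in Sham libraries. Leaving out single libraries ended the calls of Cdc45 and E2f2 (without Sham 2 or Sham 3), of Cdkn1a (without Sham 1, Sham 2 or TBI 1) and of Lin9 (without Sham 1, Sham 2, Sham 3, TBI 2 or the third C-β-LG/DSF library), with adjusted p up to 0.0752, 0.0669, 0.0894 and 0.0959 for Cdc45, E2f2, Cdkn1a and Lin9. Quantile normalization ended those of Cdc45 (0.63, adjusted p = 0.109), E2f2 (0.77, adjusted p = 0.0913) and Lin9 (0.12, adjusted p = 0.608). With only the 2 groups compared, the adjusted p was 0.0514 for Cdc45 and 0.0716 for Lin9, and with the replicate number as a block it was 0.0601 for Lin9.

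C-β-LG/DSF against TBI compares injured brain with and without the injected preparation. The TBI group is described as having the injury alone, so the preparation and the injection itself cannot be told apart. No gene of the 52 passed the test, and none of all 14292 did (limma, adjusted p under 0.05; background 0% in either direction). At an unadjusted p under 0.05, 3 of the 52 genes were lower (Cdk2, Cdk4 and Cenpf) and 0 were higher. Of all 14292 genes, 7.47% were lower at this level and 625 genes were higher. The 3 lower genes are thus no larger a share than that of all genes. The smallest adjusted p among the 52 was 0.396. Yet the estimates leaned one way: 50 of 52 differences were below 0, with a median of −0.63, beside 53.3% of all genes and a median of −0.017. Libraries of the groups did not overlap for 3 genes, all lower (Cdk2, Cdk4 and Mcm4), beside 9.28% of all genes, and 0 were wholly higher, beside 5.97%. The 2 genes with a difference above 0 were Ccnd2 (0.087) and Ccne1 (0.040).

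The size of this lean changed with single libraries. The median difference of the 52 genes was −0.14 without TBI 1 and −0.33 without C-β-LG/DSF 2, with 0 genes at an unadjusted p under 0.05 in either fit. Of all genes, 4.1% and 4.54% were lower at this level in these fits. Without TBI 3 the median was −0.96, and 26 of the 52 genes were lower at an unadjusted p under 0.05, beside 12.7% of all genes. None of the 52 passed the adjusted threshold in that fit (smallest adjusted p 0.102). The median was −0.80 without TBI 2, −0.86 without library 1 of C-β-LG/DSF and −0.77 without its library 3, and without a Sham library it does not change.

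Cdk2 had 2.73, 2.02 and 3.24 FPKM in C-β-LG/DSF libraries 1, 2 and 3, against 7.76, 4.06 and 3.54 in TBI libraries 1, 2 and 3. The highest C-β-LG/DSF library was below the lowest TBI library, and the log2 difference was −0.77 with a 95% interval of −1.40 to −0.15 (limma adjusted p = 0.396). Cdk4, the kinase of the D-type cyclins, had 28.9, 28.5 and 30.5 FPKM in C-β-LG/DSF libraries, against 56.8, 35.4 and 31.8 in TBI libraries. Its C-β-LG/DSF values were close together and all under the TBI values, with a difference of −0.44 and an interval of −0.85 to −0.035 (adjusted p = 0.405). Cenpf had 1.17, 0.141 and 0.545 FPKM in C-β-LG/DSF libraries, against 1.23, 0.982 and 1.94 in TBI libraries, where C-β-LG/DSF 1 exceeded TBI 2. Its difference was −0.83 with an interval of −1.59 to −0.064 (adjusted p = 0.405).

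The genes of mitosis with large differences between TBI and Sham overlapped between the injured groups. Cdk1 had 4.49, 1.13 and 3.48 FPKM in C-β-LG/DSF libraries, against 12.7, 4.88 and 3.32 in TBI libraries, a difference of −1.02 with an interval of −2.15 to 0.11. Mki67 had 1.93, 0.525 and 2.0 FPKM in C-β-LG/DSF libraries, against 5.24, 1.78 and 1.22 in TBI libraries, a difference of −0.62 with an interval of −1.66 to 0.43. In both genes C-β-LG/DSF 1 and 3 lay within the range of the TBI libraries and C-β-LG/DSF 2 lay below all of them. Both intervals span 0 and also large reductions, so the fit leaves the size of a difference in these genes unresolved. Of the 8 roles, the mitotic cyclins with Cdk1 and the cyclosome had the median farthest below 0, at −0.93, and the G1 cyclins and their kinases the nearest, at −0.19.

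**Figure D4:**
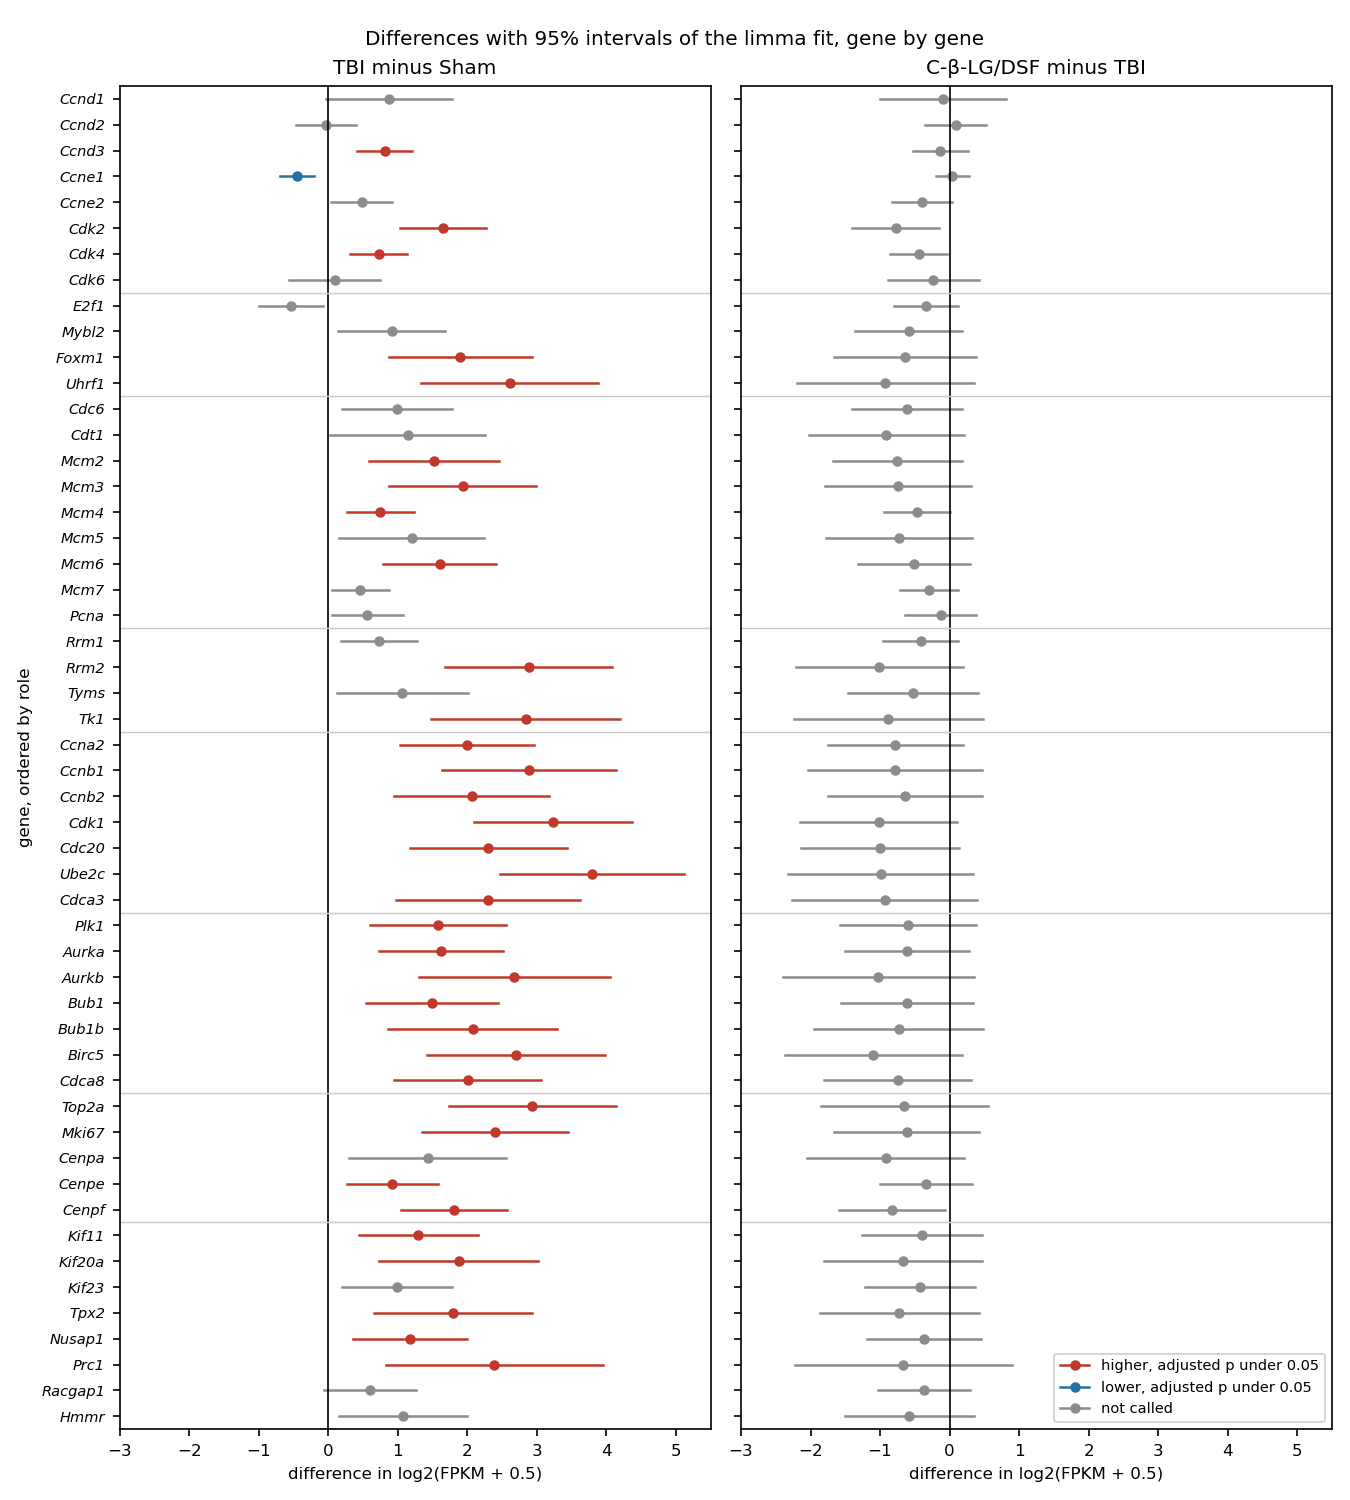
Difference in log2(FPKM + 0.5) for each of the 52 genes with its 95% interval from the limma fit, for TBI minus Sham on the left and C-β-LG/DSF minus TBI on the right; the 2 panels share the TBI libraries. On the left 34 genes are called higher and Ccne1 lower; on the right 50 of 52 points lie below 0 and no gene is called.

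Against Sham, the C-β-LG/DSF libraries still had more of many of these genes. Of the 52 genes, 7 were called higher in C-β-LG/DSF than in Sham (Ccnd3, Rrm2, Ccnb1, Cdk1, Ube2c, Top2a and Mki67), beside 6.37% of all genes, and 2 lower (Ccne1 and E2f1), beside 6.88%. The median difference was 0.89, beside 0.0084 for all genes. All 3 C-β-LG/DSF libraries stood above all 3 Sham libraries for 38 of the 52 genes, beside 22.0% of all genes, and below them for 2, beside 21.0%. This comparison shares its Sham libraries with TBI against Sham, so the pair are not independent. Of the 7 genes called higher, Ccnb1, Cdk1, Top2a and Mki67 were under 0.5 FPKM in every Sham library. Rrm2 and Ube2c reached 0.5 in only part of the Sham libraries. These genes were taken only through libraries of injured brain, where they are high. The counts over the 52 hold 14 genes under 0.5 in every Sham library, so they partly follow how the genes were taken.

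Ube2c had 8.19, 1.91 and 7.80 FPKM in C-β-LG/DSF libraries, against 0.185, 0.209 and 0.551 in Sham libraries, with a difference of 2.80 ± 0.59 (limma adjusted p = 0.0160). Top2a had 4.03, 0.646 and 2.55 FPKM in C-β-LG/DSF libraries, against 0.0181, 0.0101 and 0.0198 in Sham libraries, with a difference of 2.28 ± 0.53 (adjusted p = 0.0235). In both genes even C-β-LG/DSF 2, the lowest, was above every Sham library. The other genes called higher were Cdk1 (2.21, adjusted p = 0.0214), Ccnb1 (2.1, adjusted p = 0.0374), Rrm2 (1.88, adjusted p = 0.0478), Mki67 (1.78, adjusted p = 0.0359) and Ccnd3 (0.68, adjusted p = 0.0349).

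E2f1 had 5.90, 3.28 and 3.72 FPKM in C-β-LG/DSF libraries, against 7.73, 7.97 and 8.57 in Sham libraries, and the difference of −0.88 ± 0.20 passed (limma adjusted p = 0.0227). Ccne1 had 6.74, 6.07 and 6.4 FPKM in C-β-LG/DSF libraries, against 8.22, 9.0 and 8.75 in Sham libraries, a difference of −0.41 ± 0.11 (adjusted p = 0.0354). Both genes were below Sham in all 3 C-β-LG/DSF libraries, as they were in all 3 TBI libraries. None of the 9 calls of this comparison held in each of the 9 fits that left out 1 library. The number of the 52 higher was 0 without Sham 1, Sham 2 or C-β-LG/DSF 3, beside 2.29%, 3.46% and 2.04% of all genes. It was 1 without Sham 3 or C-β-LG/DSF 1, beside 2.41% and 4.36%, and 5 without TBI 2, beside 6.11%. It was 11 without TBI 3 or C-β-LG/DSF 2, beside 9.2% and 3.52%, and 28 without TBI 1, beside 10.7%. With FPKM rescaled to equal totals the calls over all genes were 1321 higher and 704 lower, where the values as deposited gave 911 higher and 984 lower; for the 52 genes the same rescaling gave 8 higher and 1 lower.

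Promoter letters differed between the roles. RefSeq promoters of 300 bases, from 250 before to 50 after the start site, were matched for 43 of the 52 genes (47 promoters); Aurkb, Ccna2, Ccnd1, Ccnd2, Ccne2, Foxm1, Kif20a, Mcm4 and Tpx2 were without one. The motifs were those spelled out with the sequences of Cdk1, Ube2c, Top2a, Mcm6 and Cdk2, read on both strands, with overlapping matches counted each. CHR letters were in 20 of 24 promoters of the 4 mitotic roles (83.3%) and in 2 of 23 promoters of the 4 roles of G1 and S phase (8.70%), beside 19.2% of 32851 promoters of all genes. CCAAT letters were in 91.7% of the mitotic promoters and 56.5% of the G1 and S phase promoters, beside 37.4% of all. E2F letters went the other way, with 1 of 24 mitotic promoters (4.17%) and 8 of 23 G1 and S phase promoters (34.8%), beside 2.26% of all. Of the 27 CHR matches in mitotic promoters 19 began within 50 bases of the start site.

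The 21 genes with CHR letters had a median difference of 1.81 in TBI against Sham, and 16 were called higher. Over all genes tested, 14.9% were called higher. The 7 with E2F letters and no CHR had a median of 1.60, and 4 were called higher (Cdk2, Mcm3, Mcm6 and Uhrf1). The 15 with neither had a median of 0.91, and 8 were called higher. The 3 sets overlapped widely, from 0.46 to 3.80, from 0.99 to 2.61 and from −0.53 to 2.89, and the last held Rrm2, Tk1, Birc5 and Ccnb1, all with differences far above the median of that set. In the set with CHR letters, Bub1, Bub1b, Cdk1, Cenpf, Kif11, Kif23, Mki67 and Top2a were under 0.5 FPKM in every Sham library. So were Cdc6 in the set with E2F letters, and Ccnb1, Cenpe and Tk1 in the set with neither. These genes met the filter only through libraries of injured brain, so the medians and counts of the sets partly follow the filter. These values are a description of the letters in 1 window per start site, with no test.

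**Figure D5:**
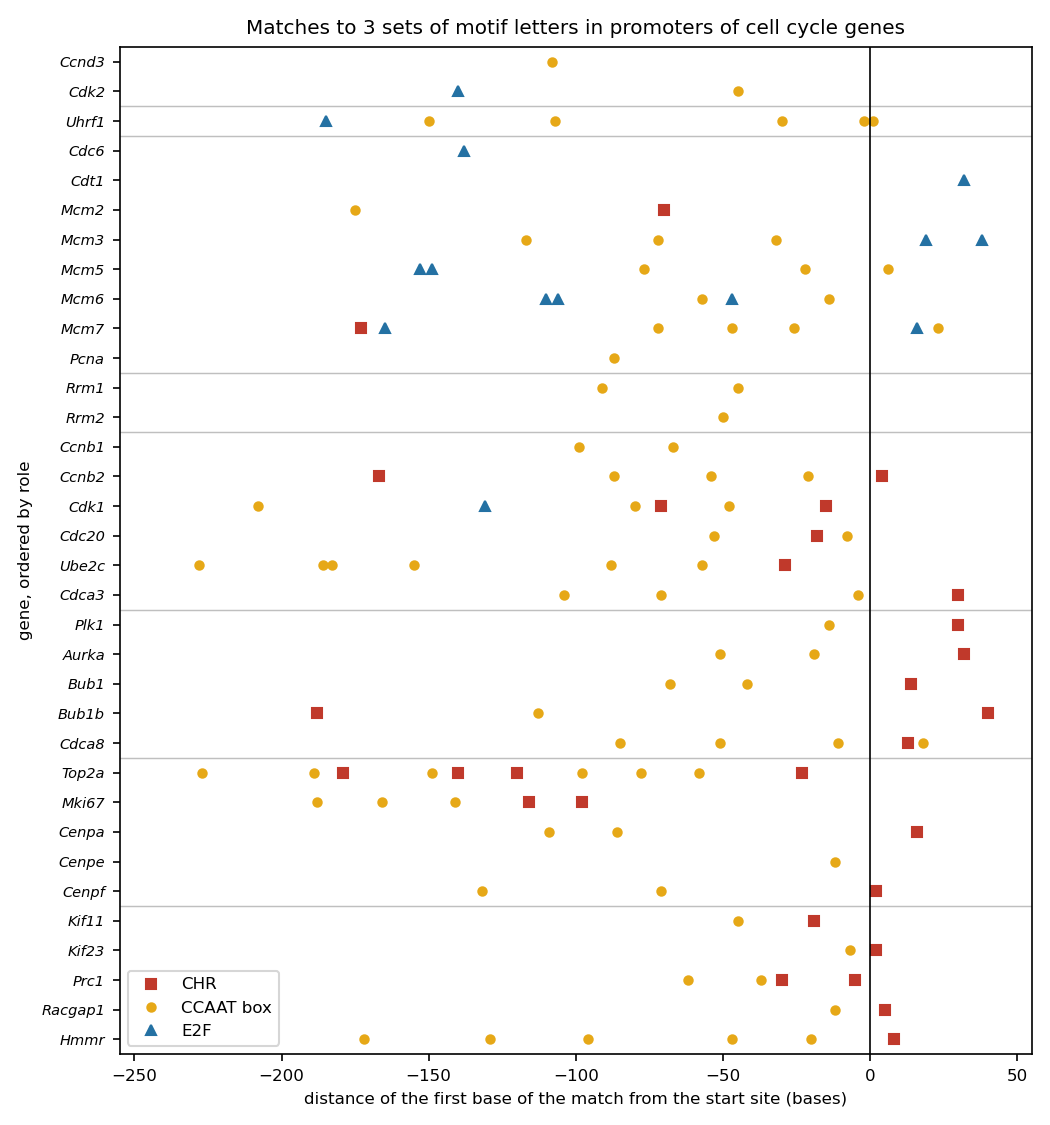
Position of the first base of each match to CHR, CCAAT box and E2F letters, in bases from the start site at 0, for the genes with a RefSeq promoter and at least 1 match, ordered by role; a gene with more than 1 promoter has them on 1 line. CHR letters, the red squares, lie mostly in the lower part of the plot among the mitotic roles, with 19 of 27 matches there within 50 bases of the start site and 1 match each in Mcm2 and Mcm7 above, and E2F letters, the blue triangles, lie in the upper part among the genes of G1 and S phase apart from 1 in Cdk1.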

How the data were processed

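Per the labels' protocols, RNA was isolated with Trizol and the library kit was Illumina Stranded Total RNA Prep. The authors' tools were HISAT2 2.1.0 and Cufflinks 2.2.1, per the submitters' processing notes, with no role or setting given there. The authors deposited 1 table of FPKM for 22482 genes and 9 libraries, with the lower and upper bound of an interval for each value. Build and annotation are not named in the labels; 22452 of the identifiers were found in GENCODE M21 (GRCm38), and 17698 starts equalled the annotated start once they were counted from 1. Symbols turned into dates (26) were restored from identifiers, and 23 repeated symbols were told apart by identifier. No value of the 52 genes carried the failure mark that 19 values of the table carry.

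Genes with FPKM of at least 0.5 in at least 3 of 9 libraries (14292) were fitted in limma (version 3.58.1, R 4.3.3) as log2(FPKM + 0.5), with a mean for each group over all 9 libraries, 6 residual degrees of freedom and moderated variances with a mean trend. Tests were two-sided and adjusted by Benjamini-Hochberg over all 14292 genes in each comparison; an adjusted p under 0.05 was called. The added 0.5 understates differences of low genes. SE and 95% intervals are those of the fit for 1 gene. In 3 against 3 libraries the smallest two-sided p of an exact permutation test on a gene is 0.1, so calls rest on variances shared across genes. The procedure was tested on simulated data.

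The 52 genes, the 4 lists of other cell cycle genes and the cell type marker lists were chosen with earlier results of these data known. Library values are given for the 2 genes of smallest p in each role in TBI against Sham, for genes called against the prevailing direction and for Mki67, Top2a, Cdk1, Ccnd1, Ccnd2, Ccnd3, Mcm2 and Pcna. In each other list they are given for the 2 genes of smallest p among those called in each direction, and for Cdkn1a, Cdkn1c and Cdkn2c. Values of further genes were added after they had been seen. Alternatives were other pseudocounts, filters, scalings, variance models and group choices, the replicate number as a block, and leaving out each library.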

Additional observations from a re-analysis of the deposited data

How the results depend on the processing

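The medians of the 52 genes kept their direction under the alternatives run in all 3 comparisons. In TBI against Sham the number of the 52 called higher was 22 under quantile normalization, beside 11.1% of all genes. It was 17 to 45 when 1 library was left out, beside 9.06% to 16.5% of all genes. The number called lower was 2 under quantile normalization, beside 13.3% of all genes, and 2 with only the 2 groups compared, beside 8.87%. It was 0 to 2 when 1 library was left out, beside 6.59% to 14.1%. Calls over all genes in TBI against Sham ran from 2242 to 4373 when 1 library was left out. For C-β-LG/DSF against TBI, 2 genes of the whole table were called with no filter, 1 with no mean trend and 0 to 2 when 1 library was left out, none of them among the 52. For C-β-LG/DSF against Sham, calls over all genes were 3444 with only the 2 groups compared and 660 to 2931 when 1 library was left out. There the number of the 52 called higher was 13 with a pseudocount of 0.1 and 4 with a pseudocount of 1, beside 7.2% and 5.79% of all genes. It was 3 with no filter and 2 under quantile normalization, beside 4.1% and 4.56%. It was 25 with only the 2 groups compared, beside 12.6%, and 0 to 28 when 1 library was left out, beside 2.04% to 10.7%. The number called lower was 1 with FPKM rescaled to equal totals, beside 4.93% of all genes. It was 0 to 2 when 1 library was left out, beside 2.58% to 9.77%. The median difference was 1.23 with a pseudocount of 0.1. The cause of these changes was not tested.

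Among the 52, the sign of the difference changed in at least 1 alternative for 2 genes between TBI and Sham, 10 genes between the injured groups and 5 genes between C-β-LG/DSF and Sham, none of them called in that comparison. In TBI against Sham, Ccnd2 was 0.0088 with FPKM rescaled to equal totals and −0.13 to 0.11 when 1 library was left out, and Cdkn1c, outside the 52, −0.39 to 0.37; Cdk6 was −0.29 under quantile normalization and −0.097 to 0.42 when 1 library was left out. When 1 library was left out, the ranges for C-β-LG/DSF against TBI were −0.42 to 0.39 for Ccnd1, −0.14 to 0.26 for Ccnd2, −0.24 to 0.078 for Ccnd3, −0.043 to 0.085 for Ccne1, −0.32 to 0.14 for Pcna, −0.81 to 0.011 for Tyms, −0.69 to 0.064 for Kif11, −0.66 to 0.061 for Nusap1, −1.13 to 0.068 for Prc1 and −0.68 to 0.016 for Racgap1. That of Ccnd2 for C-β-LG/DSF against Sham was −0.17 to 0.23 and that of Cdk6 −0.33 to 0.19, and under quantile normalization Ccne2, Cdc6 and Cdt1 were −0.21, −0.060 and −0.072 there.

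Libraries that share a replicate number did not deviate together in every pair: the correlations of their deviations from the group means ran from −0.095 to 0.326, and TBI 3 correlated best with a library of another number. With the replicate number as a block, 38 of the 52 genes were higher and 1 lower in TBI against Sham, beside 13.8% and 10.8% of all genes. None was called in the comparison of the injured groups. For C-β-LG/DSF against Sham 8 were higher and 1 lower, beside 5.47% and 5.91% of all genes. Calls over all genes with the block were 3519 in TBI against Sham, 0 between the injured groups and 1627 for C-β-LG/DSF against Sham. Fragment counts per library are not given, so depth sets a limit that cannot be stated as a count, and Sham levels under 0.5 FPKM are the least certain.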
